A study of Mus musculus with 3 samples.

Results

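The genes described here encode the nuclear part of the oxidative phosphorylation system, the respiratory chain and ATP synthase of the inner mitochondrial membrane. They were taken by name from the deposited expression table: every row whose symbol starts with Nduf, Uqcr, Atp5 or Cox4 to Cox8, together with Sdha to Sdhd, Cyc1 and Cycs, leaving out pseudogene symbols and Cox6a2. This gave 93 of the 23348 rows used. By complex, 36 belonged to complex I, 4 to complex II, 9 to complex III, 17 to complex IV (with Ndufa4) and 15 to complex V. Of the other members, 9 were assembly factors, and the rest were Cycs (cytochrome c), Cox7a2l (a factor that joins complexes III and IV) and Ndufa4l2 (a paralog of Ndufa4).

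The RNA came from thymic cells gated as DN1, that is without lineage markers, with CD44 and without CD25, in mice of a 129sv/C3H background at 19 days of age. There was 1 library per genotype. The wild type library pooled 2 mice, the gl/gl library pooled 3 grey-lethal mice (Ostm1-/-), and the gl/glTR library pooled 3 mice that carried the gl/gl genotype together with a CD2-Ostm1 transgene. CD2 regulatory sequences are known to act in lymphoid cells, and grey-lethal mice are known for osteopetrosis, a failure of bone resorption. With 1 pool per genotype no difference below has a replicate check, no test was made, and a fold change compares libraries and not genotypes. Ostm1, whose protein partners the lysosomal chloride transporter Clcn7, was at 19.6 FPKM in wild type, listed at 0 in gl/gl and at 5.35 FPKM in gl/glTR, in the order the labels imply.

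Oxidative phosphorylation passes electrons from NADH through complex I, and from succinate through complex II, to ubiquinone, then through complex III, cytochrome c and complex IV to oxygen. Complexes I, III and IV pump protons, and complex V, the ATP synthase, uses the gradient to make ATP. All complexes except complex II also hold subunits encoded by mitochondrial DNA, so the nuclear transcripts described here are not their whole supply. Transcription of the nuclear genes is known to be served by NRF1, by ETS-family factors such as GABP, and by YY1. Immature thymocytes are known to draw on both glycolysis and oxidative phosphorylation.

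Promoters are shown because NRF1, ETS-family factors and YY1 are known to serve genes of this kind. The part of these factors in the differences between libraries was not tested. A promoter here is the RefSeq window (GRCm38.p6) from 250 bases before to 50 bases after a transcription start, and 77 of the 93 members had one. Both strands were searched for GCGCA and GCGC with any 1 base between them (NRF1), CCGGAAG (ETS factors) and AAGATGG (YY1). The NRF1 motif was present for 19 of the 77 members (24.7%), against 11.3% of 9442 measured genes with a promoter and 4.60% of all 32851 promoters. Members and measured genes counted if any of their windows held the motif. The share of all promoters counts each window singly, those of genes not measured included, and is thus not on the same footing. The ETS motif was present for 17 members (22.1%, against 19.9% of measured genes and 8.86% of all promoters), and the YY1 motif for 12 members (15.6%, against 8.39% and 6.34%). Below is first, for each complex, the member with the most NRF1 matches, ties going to the higher level in wild type. In complex V 6 members tied at 1 match, and Atp5g2 was taken by its level. Then follow Atp5b, the widely expressed subunit that was lowest in gl/gl relative to wild type, and Cox6b2, a tissue-restricted isoform. Capitals mark the motifs, whose matches do not overlap here, and all 7 windows run 5′ to 3′ on the gene's strand.
Ndufb4: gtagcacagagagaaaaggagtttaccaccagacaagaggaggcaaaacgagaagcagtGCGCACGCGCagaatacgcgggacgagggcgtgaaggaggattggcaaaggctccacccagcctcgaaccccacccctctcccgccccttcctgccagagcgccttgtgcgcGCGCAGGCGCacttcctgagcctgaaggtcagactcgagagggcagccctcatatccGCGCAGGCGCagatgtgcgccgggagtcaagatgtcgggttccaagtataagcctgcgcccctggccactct
Sdha: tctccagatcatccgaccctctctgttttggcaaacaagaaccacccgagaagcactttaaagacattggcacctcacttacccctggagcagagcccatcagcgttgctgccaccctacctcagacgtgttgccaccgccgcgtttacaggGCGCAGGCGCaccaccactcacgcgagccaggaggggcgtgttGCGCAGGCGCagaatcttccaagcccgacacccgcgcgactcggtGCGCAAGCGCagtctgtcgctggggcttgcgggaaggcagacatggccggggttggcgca
Uqcrc1: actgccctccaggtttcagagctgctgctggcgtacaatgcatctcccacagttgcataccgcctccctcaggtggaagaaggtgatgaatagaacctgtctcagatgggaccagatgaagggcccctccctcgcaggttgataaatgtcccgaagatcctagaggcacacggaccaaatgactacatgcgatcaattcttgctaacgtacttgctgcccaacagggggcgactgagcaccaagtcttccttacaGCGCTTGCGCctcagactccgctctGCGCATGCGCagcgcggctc
Cox6a1: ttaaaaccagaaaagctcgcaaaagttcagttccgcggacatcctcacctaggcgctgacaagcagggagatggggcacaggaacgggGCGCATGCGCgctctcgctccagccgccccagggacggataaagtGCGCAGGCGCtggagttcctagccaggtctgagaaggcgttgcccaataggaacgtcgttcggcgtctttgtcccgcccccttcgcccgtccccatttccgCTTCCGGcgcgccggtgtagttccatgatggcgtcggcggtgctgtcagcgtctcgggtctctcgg
Atp5g2: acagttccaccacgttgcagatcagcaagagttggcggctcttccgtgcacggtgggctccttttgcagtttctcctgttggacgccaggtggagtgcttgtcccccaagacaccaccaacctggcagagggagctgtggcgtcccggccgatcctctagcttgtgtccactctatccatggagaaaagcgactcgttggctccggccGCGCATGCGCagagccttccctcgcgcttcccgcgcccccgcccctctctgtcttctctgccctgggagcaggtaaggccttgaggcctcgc
Atp5b: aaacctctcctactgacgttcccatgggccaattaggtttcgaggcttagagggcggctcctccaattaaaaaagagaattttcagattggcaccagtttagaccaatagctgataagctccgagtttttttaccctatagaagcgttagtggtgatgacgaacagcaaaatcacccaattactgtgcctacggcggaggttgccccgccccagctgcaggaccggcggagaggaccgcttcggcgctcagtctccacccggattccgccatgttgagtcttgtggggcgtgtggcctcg
Cox6b2: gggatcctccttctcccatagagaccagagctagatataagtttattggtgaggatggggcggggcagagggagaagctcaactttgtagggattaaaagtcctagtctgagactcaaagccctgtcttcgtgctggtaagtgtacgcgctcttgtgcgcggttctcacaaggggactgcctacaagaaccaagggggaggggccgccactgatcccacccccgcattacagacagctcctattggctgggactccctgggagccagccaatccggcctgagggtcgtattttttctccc
The windows lie at chr16:37654319-37654618 on the minus strand (Ndufb4, complex I), chr13:74350191-74350490 on the minus strand (Sdha, complex II), chr9:108936398-108936697 on the plus strand (Uqcrc1, complex III), chr5:115348909-115349208 on the minus strand (Cox6a1, complex IV), chr15:102670998-102671297 on the minus strand (Atp5g2, complex V), chr10:128083057-128083356 on the plus strand (Atp5b) and chr7:4753045-4753344 on the minus strand (Cox6b2). Ndufb4 and Sdha held 3 NRF1 matches each, Uqcrc1 held 2, and Cox6a1 held 2 beside 1 ETS match written on the opposite strand (CTTCCGG). Atp5g2 held 1 NRF1 match. None of the 3 motifs was found in the windows of Atp5b and Cox6b2, which says only that these letters are not there. Among measured members, those with and without an NRF1 match had median log2 fold changes of -0.35 (19 members) and -0.36 (57 members) in gl/gl against wild type, of -0.32 and -0.35 in gl/glTR against wild type, and of 0.07 and 0.06 in gl/glTR against gl/gl. With an ETS match the medians were -0.27 (17 members), -0.32 and -0.04 in the same order of comparisons, and without one -0.41 (59 members), -0.34 and 0.10. With a YY1 match they were -0.38 (12 members), -0.32 and 0.10, and without one -0.36 (64 members), -0.35 and 0.05. The widest gap in gl/gl against wild type was thus that of the ETS motif, whose members lay closer to wild type, and none of these differences was tested.

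Some values of the whole libraries bear on all that follows. Cd44 was at 66.4, 109 and 64.7 FPKM in wild type, gl/gl and gl/glTR, and Il2ra, which encodes CD25, at 5.94, 11.7 and 4.03 FPKM, beside a median over all measured genes of 12.8, 12.7 and 12.7 FPKM. The transcript of the gated CD44 was thus above that median in all 3 libraries, and Il2ra was below it, only slightly so in gl/gl. Lineage transcripts were present too. The 8 T lineage genes summed to 783, 796 and 585 FPKM, with Cd3g of the T cell receptor complex at 274, 262 and 164 FPKM. In gl/gl 5 of the 8 were above wild type and 3 below. By 1.5-fold 0 were higher and 2 lower, Cd8a (32.7, 7.83 and 33.5 FPKM) and Cd8b1 (35.5, 9.57 and 34.0 FPKM). The gl/gl library had other cell type markers than the other two: its 14 granulocyte genes summed to 29276 FPKM against 399 in wild type and 435 in gl/glTR, with 13 of 14 at least 1.5-fold higher than in wild type and Mpo lower. Most of the gl/gl granulocyte sum was S100a8 and S100a9, with 14728 and 9344 FPKM. In gl/gl the 13 monocyte and macrophage genes summed to 1721 FPKM against 294 and 219, mostly Lyz2 and Ly6c2 (1038 and 405 FPKM). The 10 NK and innate lymphoid genes summed to 1089 FPKM in gl/gl against 506 and 437. The 10 B cell genes summed to 245 FPKM against 136 and 138. Of these 10, 6 were at least 1.5-fold higher in gl/gl than in wild type and 3 lower by that fold. Mast cell and basophil genes summed to 40.1 FPKM in gl/gl and 46.0 in gl/glTR, against 203 in wild type. Most of the gl/gl sum was Hdc, with 1.31, 35.0 and 0.895 FPKM in wild type, gl/gl and gl/glTR. Most of the gl/glTR sum was Cpa3, with 65.6, 3.76 and 40.6 FPKM. The 12 early progenitor genes summed to 74.4 FPKM in gl/gl against 646 and 633, with all 12 at least 1.5-fold lower. Of 18 S phase genes 15 were at least 1.5-fold lower in gl/gl than in wild type. Over all measured genes 16.3% were higher and 16.1% lower by that fold in gl/gl against wild type. The sex-linked transcripts differed as well, Xist being at 116, 0.184 and 235 FPKM and the Y-linked Eif2s3y at 0.0338, 59.8 and 0.0395 FPKM. What these differences contribute to the results below was not tested, and in bulk RNA fewer cells of a type and less RNA per cell cannot be told apart.

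In wild type DN1 cells the members were abundant. A gene counted as measured at 1 FPKM (fragments per kilobase of transcript, scaled to library size) or more in at least 1 library, which 12849 genes and 90 of the 93 members met. The measured members had a median level of 95.8 FPKM in wild type, against 12.8 FPKM over all measured genes. The levels, which are per length, stepped up along the chain. Median levels in wild type were 80.4 FPKM for the 36 complex I members, 91.6 FPKM for the 4 of complex II, 103 FPKM for the 9 of complex III, 167 FPKM for the 15 measured members of complex IV and 249 FPKM for the 15 of complex V. The same order of medians, apart from the closeness of complexes II and III in gl/gl (75.4 and 75.2 FPKM), was found in the other libraries. Assembly factors, which help build the complexes without being part of them, had a median level of 9.09 FPKM in wild type.

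The highest level in wild type was that of Atp5b, the catalytic beta subunit of ATP synthase (chromosome 10, 128083307 to 128090388, mm10), with 498 FPKM. It was followed by Cox4i1, the regulatory subunit 4 of cytochrome c oxidase, with 461 FPKM. Atp5g2, which encodes the proton-carrying c subunit, had 413 FPKM, Atp5a1, the alpha subunit beside beta in the catalytic head, 411 FPKM, and Atp5e, the epsilon subunit, 402 FPKM. The highest complex I level was that of the accessory subunit Ndufa3 with 172 FPKM, and that of complex III was the hinge protein Uqcrh with 331 FPKM. Cycs, the mobile electron carrier, was at 32.1 FPKM, below every widely expressed subunit of complexes II to V.

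Relative order among subunits was kept between libraries. Leaving out tissue-restricted isoforms, the 76 subunits (Cycs included) had a Spearman correlation of levels across genes of 0.991 between wild type and gl/glTR and 0.966 between wild type and gl/gl. Over all 12849 measured genes, which share the same libraries, the values were 0.965 and 0.886, and these are descriptions across genes that are not independent. The c subunit shows the same point. The c subunit is encoded by 3 genes whose proteins differ in the import sequence that is cut off. Atp5g1 made up 14.6%, 13.9% and 14.5% of their summed FPKM in wild type, gl/gl and gl/glTR. Atp5g2 made up 50.8%, 50.6% and 50.05%, and Atp5g3 the remaining 34.7%, 35.4% and 35.5%.

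**Figure D1:**
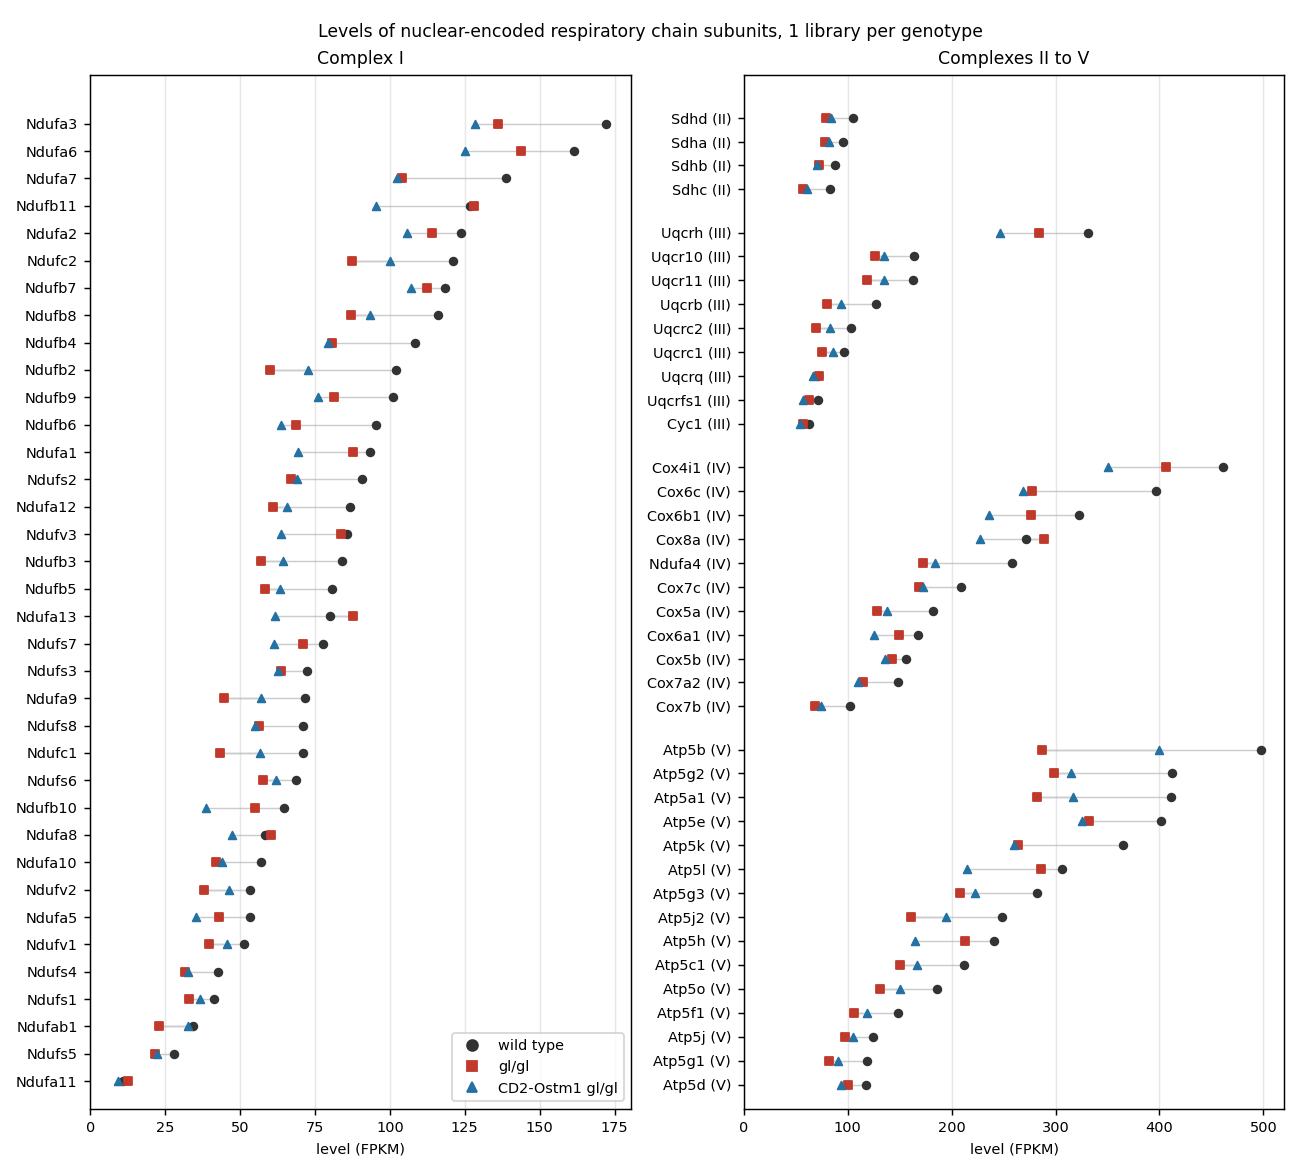
Level in FPKM (horizontal axis, linear, from 0) of each measured subunit by complex, tissue-restricted complex IV isoforms, Cycs and assembly factors left out. Each point is 1 library (black circle wild type, red square gl/gl, blue triangle gl/glTR, written CD2-Ostm1 gl/gl in the plots); the wild type circle lies furthest right for most subunits, while Ndufa13, Ndufa11, Ndufa8, Ndufb11, Cox8a and Uqcrq have the gl/gl square at or beyond it.

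Setting gl/gl against wild type asks how the DN1 library of mice without Ostm1 differed. Most subunits were moderately lower: 70 of the 76 were below wild type in gl/gl, with a median of 77.4% of the wild type level. Only 10 of the 90 measured members were at least 1.5-fold lower on the scale of log2(FPKM + 1) and 1, Cox8b, was higher, whereas 16.1% of all measured genes were lower and 16.3% higher by that fold. At 2-fold 0 members were higher and 3 lower (Cox4i2, Cox6b2 and Cox7a1), beside 8.16% and 6.15% of all measured genes. Neither share of members was above that of genes in general. The shift was in the centre of the distribution. The median log2 fold change of the members was -0.36, with the middle 50% between -0.50 and -0.18, against a median of -0.03 and quartiles of -0.40 and 0.36 over all measured genes. Below wild type were 81 of 90 members (90.0%), against 52.4% of all measured genes.

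**Figure D2:**
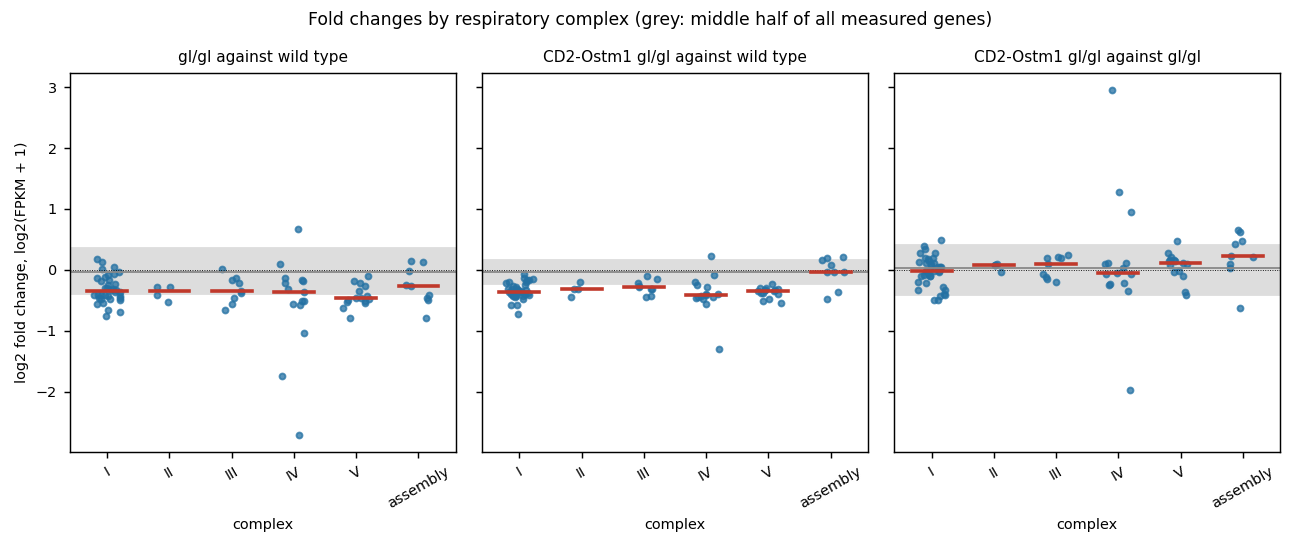
Difference of log2(FPKM + 1) (vertical axis) for the measured members by complex in the 3 comparisons; each point is 1 gene, the red bar is the median of the complex, and the grey band spans the middle 50% of all measured genes around its median (grey line). Medians of complexes I to V in gl/gl against wild type lie between -0.47 (complex V) and -0.35. That of the assembly factors lies at -0.27. The outlying points of complex IV are Cox4i2, Cox6b2, Cox7a1 and Cox8b.

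Among complexes, ATP synthase had the lowest median in gl/gl against wild type, -0.47, and all 15 of its members were below wild type. Atp5b had 498 (wild type), 287 (gl/gl) and 399 FPKM (gl/glTR). It was therefore at 57.7% of wild type in gl/gl, the lowest share of any widely expressed subunit, with a log2 fold change of -0.79, and at 80.2% in gl/glTR. Its partner Atp5a1 had 411, 282 and 316 FPKM, 68.6% and 77.0% of wild type. Atp5c1, the gamma subunit of the rotor, had 212, 150 and 167 FPKM, and gl/gl was again lowest. Atp5d and Atp5e, the delta and epsilon subunits on the same stalk, were at 85.6% and 82.7% of wild type in gl/gl, so the members of the catalytic head ranged from 57.7% to 85.6%. Atp5j2, the f subunit in the membrane, was at 64.7% and was the other complex V member past 1.5-fold (249, 161 and 195 FPKM). Atp5l, the g subunit beside it, was at 93.3% of wild type in gl/gl. In the stalk that holds the head to the membrane, Atp5o, the OSCP subunit, had 186, 131 and 150 FPKM, and Atp5f1, the b subunit, 149, 106 and 118 FPKM. Atp5h, the d subunit of that stalk, had 241, 213 and 165 FPKM, so that gl/glTR and not gl/gl was the lowest library, as also for Atp5l with 306, 286 and 214 FPKM.

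The inhibitor of ATP synthase was lower still. Atpif1, which blocks ATP hydrolysis by the enzyme and is no member of the list by its name, had 148 (wild type), 54.7 (gl/gl) and 110 FPKM (gl/glTR). Its log2 fold change of -1.42 in gl/gl against wild type was beyond that of every complex V subunit.

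Complex I, the NADH dehydrogenase, had a median log2 fold change of -0.35 in gl/gl against wild type, with 32 of 36 members below wild type. The 7 core subunits, which carry the flavin and iron-sulfur centres and bind ubiquinone, ranged from -0.47 to -0.13. Ndufv2, a core iron-sulfur subunit at the NADH-binding tip, had 53.3 (wild type), 38.1 (gl/gl) and 46.5 FPKM (gl/glTR), and Ndufs7, the subunit that passes electrons on to ubiquinone, 77.6, 71.0 and 61.3 FPKM (the file gives Ndufs7 and Atp5d 1 merged locus). Of these core members Ndufv2 was the lowest and Ndufs7 the highest relative to wild type in gl/gl. The 29 accessory subunits spread more widely, from -0.75 to 0.17. Past 1.5-fold were Ndufb2 (102, 60.1 and 72.7 FPKM in wild type, gl/gl and gl/glTR), Ndufc1 (70.8, 43.3 and 56.7 FPKM) and Ndufa9 (71.6, 44.8 and 56.9 FPKM). For all 3 the gl/gl library was lowest and gl/glTR lay between the other libraries.

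A few complex I subunits were not below wild type in gl/gl. Ndufa13, also known as GRIM-19, had 79.9 (wild type), 87.7 (gl/gl) and 61.7 FPKM (gl/glTR), so the gl/gl library was highest. Ndufa11 and Ndufa8, membrane-arm accessory subunits, were at 114% and 104% of wild type in gl/gl. Ndufb11, encoded on the X chromosome, had 127, 128 and 95.3 FPKM. The X chromosome carried 3 members: Ndufb11 and the complex I subunit Ndufa1 were at 101% and 93.9% of wild type in gl/gl, whereas Cox7b was at 67.2%. Their median log2 fold change was -0.09, against -0.36 for measured members on other chromosomes, but with Cox7b at -0.57 they did not behave as 1 group. The X-linked Xist and the Y-linked Eif2s3y differed between the libraries as given above, and their part here was not tested.

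In complexes II and III the differences were of the same size. Succinate dehydrogenase, which also serves the citric acid cycle, had its flavoprotein Sdha at 95.1, 78.3 and 82.3 FPKM, and its iron-sulfur subunit Sdhb at 88.2, 72.5 and 70.7 FPKM. The membrane anchors Sdhc and Sdhd were at 82.8, 57.2 and 60.5 FPKM and at 105, 78.8 and 84.1 FPKM. All 4 were below wild type in both other libraries, by log2 fold changes from -0.52 (Sdhc) to -0.28 in gl/gl. In complex III, Uqcrb, a ubiquinone-binding subunit, had 127, 80.3 and 93.3 FPKM and was its member past 1.5-fold in gl/gl (-0.65). Uqcrc2, a core protein of the matrix side, had 103, 69.8 and 82.5 FPKM, a log2 fold change of -0.56 in gl/gl. Uqcrc1, the other core protein, had 96.2, 75.2 and 86.1 FPKM, and Uqcrfs1, the Rieske iron-sulfur protein, 71.0, 63.0 and 56.6 FPKM. Cyc1, the heme-bearing cytochrome c1, was at 90.9% of wild type in gl/gl, and Uqcrq, a small subunit, at 101%. Cycs had 32.1, 23.1 and 25.3 FPKM in wild type, gl/gl and gl/glTR.

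Complex IV held the greatest contrasts, all among isoforms known from particular tissues. Cox4i2, the subunit 4 isoform known from lung, had 8.19 (wild type), 0.403 (gl/gl) and 9.81 FPKM (gl/glTR). It was thus at 4.92% of wild type in gl/gl, a log2 fold change of -2.71, and at 120% in gl/glTR. Cox6b2, known from testis (chromosome 7, 4751794 to 4753094, mm10), had 9.69, 2.197 and 6.75 FPKM, a log2 fold change of -1.74 in gl/gl. Cox7a1, known from heart and skeletal muscle, had 2.75, 0.822 and 2.54 FPKM, a log2 fold change of -1.04 in gl/gl. For these 3 genes gl/gl was the low library and gl/glTR was near or above wild type, or at 69.7% of it for Cox6b2. The sum of the early progenitor genes had the same low library, and the part of cell makeup in these 3 genes was not tested. Cox8b, known from heart and brown fat, went the other way, with 1.46 FPKM in wild type against 2.92 in gl/gl, and was listed at 0 in gl/glTR. In gl/gl these values rest on few fragments: by a rough estimate about 6.48 for Cox4i2, 15.7 for Cox6b2, 5.98 for Cox7a1 and 14.2 for Cox8b, against about 209, 110, 31.8 and 11.3 in wild type. Cox7b2 and Cox8c, known from testis, were listed at 0 in all 3 libraries, and Ndufa4l2, known as a hypoxia-induced gene, was below 1 FPKM in all 3 (0.134, 0.32 and 0.385). These 3 are the members that did not count as measured.

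**Figure D3:**
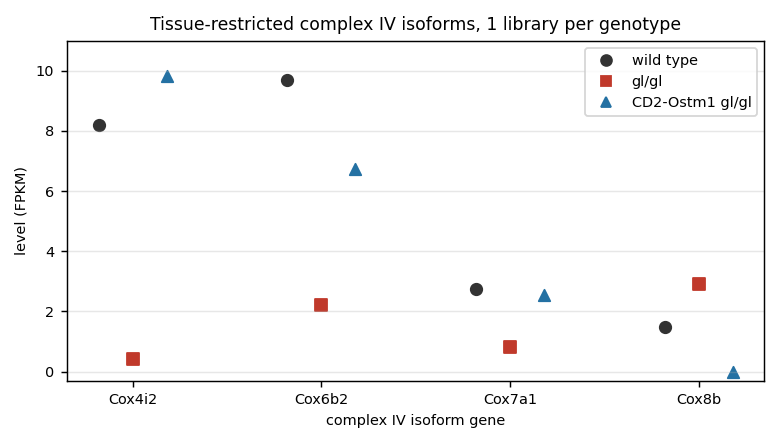
Level in FPKM (vertical axis, linear) of the 4 measured tissue-restricted complex IV isoform genes, 1 point per library. Cox4i2, Cox6b2 and Cox7a1 are lowest in gl/gl (0.403, 2.197 and 0.822 FPKM), and Cox8b is at 0 in gl/glTR.

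The isoforms stood beside far more abundant partners. Cox4i2 made up 1.75% of the summed FPKM of Cox4i1 and Cox4i2 in wild type, with 0.0991% for gl/gl and 2.73% for gl/glTR. Cox6b2 made up 2.92%, 0.788% and 2.79% of Cox6b1 and Cox6b2. Cox7a1 made up 1.82%, 0.71% and 2.26% of Cox7a1 and Cox7a2. Of the 11 widely expressed complex IV subunits, 10 were below wild type in gl/gl and none reached 1.5-fold in any comparison, with a median of -0.31 in gl/gl. Cox4i1 itself had 461, 406 and 350 FPKM, 88.1% and 75.9% of wild type, so gl/glTR was lower than gl/gl. Ndufa4, first named as a complex I subunit and now placed in complex IV, had 258, 173 and 184 FPKM. Cox6c had 397, 277 and 268 FPKM, Cox5a 182, 128 and 138 FPKM and Cox5b 156, 143 and 136 FPKM. Cox5a and Cox5b bind the matrix side of the enzyme, and Cox5b lay closer to wild type in both other libraries (91.5% and 87.4%, against 70.0% and 75.6% for Cox5a). Cox8a, the widely expressed partner of Cox8b, had 271, 289 and 227 FPKM and was the widely expressed complex IV subunit not below wild type in gl/gl. Cox7a2l had 372, 307 and 280 FPKM.

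The library of gl/gl mice with the transgene, gl/glTR, was next set against wild type. All 76 subunits were below wild type, at a median of 78.6% of the wild type level and between 60.0% (Ndufb10) and 95.7% (Ndufab1, the acyl carrier protein). The median log2 fold change of the 90 members was -0.34, with the middle 50% between -0.42 and -0.24, against -0.04, -0.23 and 0.17 over all measured genes. Past 1.5-fold were 2 members lower and 0 higher, where 4.26% of all measured genes were lower and 5.23% higher. The 2 were Ndufb10, an accessory subunit of complex I with 64.6, 55.1 and 38.7 FPKM in wild type, gl/gl and gl/glTR, and Cox8b, listed at 0. Below wild type were 85 of 90 members, against 55.2% of all measured genes. At 2-fold 0 members were higher and 1, Cox8b, lower, beside 1.34% and 1.67% of all measured genes. Medians by complex ran from -0.42 (complex IV) over -0.36 (complex I), -0.34 (complex V) and -0.32 (complex II) to -0.29 (complex III). The granulocyte and early progenitor sums, given above, lay near wild type in this library. Its dendritic cell genes summed to 406 FPKM, against 1150 in wild type and 1634 in gl/gl, with 10 of 11 below wild type. Most of each sum was Cd74, H2-Aa, H2-Ab1 and H2-Eb1. Siglech was higher than in wild type, with 6.20 FPKM there and 19.0 in gl/glTR. All 9 measured mast cell and basophil genes were below wild type in gl/glTR. In gl/gl 8 of the 9 were, with Hdc higher. The part of these lists in the values was not tested.

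The 9 assembly factors among the members had a median log2 fold change of -0.03 in gl/glTR against wild type, beside -0.04 over all measured genes, and 4 of them were above wild type. A list of 37 further measured assembly factors, with other name prefixes, had a median of -0.15, and 30 of them were below wild type. Atp5s, a coupling factor of ATP synthase, had 3.84, 2.64 and 4.60 FPKM in wild type, gl/gl and gl/glTR, and Ndufaf6, which helps assemble complex I, 5.97, 4.03 and 6.93 FPKM. Both were lowest in gl/gl and highest in gl/glTR. Ndufaf2, an assembly chaperone of complex I, had 18.1, 10.04 and 13.8 FPKM, 55.4% of wild type in gl/gl and a log2 fold change of -0.79. Ndufaf3 had 13.0, 14.5 and 9.04 FPKM, lowest in gl/glTR.

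Set against gl/gl, the gl/glTR library shows what differed with the transgene present. The members were about level, with a median log2 fold change of 0.06 against 0.02 over all measured genes, with 39 of 90 members below gl/gl where 48.2% of all measured genes were. At 1.5-fold 5 were higher (Cox4i2, Cox6b2, Cox7a1, Ndufaf6 and Atp5s) and 2 lower (Ndufaf3 and Cox8b, listed at 0), where 16.8% and 18.8% of all measured genes were. At 2-fold 2 were higher (Cox4i2 and Cox6b2) and 1, Cox8b, lower, beside 6.47% and 9.82% of all measured genes. Complex V had 10 of 15 members higher (median 0.11), led by Atp5b at 0.47, and complex I 17 of 36 (median -0.02). The greatest differences in complex I were Ndufab1 at 0.49 and Ndufa13 and Ndufb10, both at -0.50. Both comparisons with wild type share that library, so their values are not independent.

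Level and transcript length moved with the fold changes across all genes, and most members are abundant and short. Over the 1673 genes with a mean level of 50 FPKM or more, members included, the median log2 fold change was -0.15 in gl/gl and -0.24 in gl/glTR against wild type. The 67 members at that level had medians of -0.35 and -0.36. Of these genes 60.4% were below wild type in gl/gl and 80.6% in gl/glTR, against 62 and 67 of the 67 members. Length was taken as the median over a gene's annotated transcripts, which need not be that of the transcript expressed. Among the 553 genes of that level and of 1200 bases or less the medians were -0.25 and -0.33. The 51 short members had -0.31 and -0.38. Among the 1064 longer genes they were -0.07 and -0.19, and the 16 longer members had -0.46 and -0.32. The distance between the members and all genes of like level and length was therefore 0.1 or less for short transcripts in both comparisons, and greatest for longer transcripts in gl/gl. What level and length contribute was not tested.

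**Figure D4:**
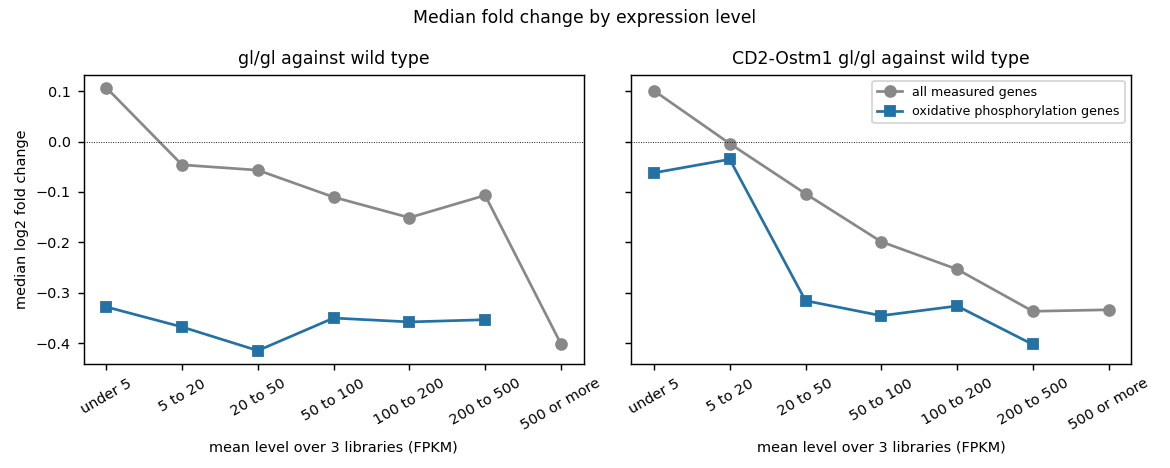
Median log2 fold change (vertical axis) over all measured genes (grey circles) and over the members (blue squares) in classes of mean level over the 3 libraries (horizontal axis, FPKM). In gl/gl against wild type the members lie at -0.35 to -0.36 and all genes at -0.11 to -0.15 in the classes from 50 to 500 FPKM; in gl/glTR against wild type all genes reach -0.34 at 200 to 500 FPKM beside -0.40 for the members; classes under 50 FPKM hold 4, 10 and 9 members, and that of 200 to 500 FPKM holds 16.

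Other mitochondrial genes lay mostly below wild type in gl/gl, while the share past 1.5-fold was not above that of all measured genes in every list. The lists were chosen with earlier results of these data known, and members are left out of them. Of 37 measured further assembly factors 5 were at least 1.5-fold lower and 1 higher in gl/gl against wild type (median -0.23), where 16.1% of all measured genes were lower and 16.3% higher. The higher one was Sdhaf1, a complex II factor, with 21.0, 37.3 and 23.0 FPKM in wild type, gl/gl and gl/glTR, and among the lower ones Tmem70, a factor of ATP synthase assembly, had 28.1, 16.1 and 23.5 FPKM. Of 18 genes of the citric acid cycle and pyruvate dehydrogenase 4 were lower (median -0.42). Idh2, the mitochondrial NADP-dependent isocitrate dehydrogenase, had 114 (wild type), 19.8 (gl/gl) and 110 FPKM (gl/glTR), a log2 fold change of -2.46. Suclg2, a subunit of succinyl-CoA ligase, and Fh1, fumarase, had log2 fold changes of -1.15 and -0.91.

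Protein import had the lowest median of the mitochondrial lists in gl/gl against wild type, -0.51, with 10 of 24 at least 1.5-fold lower and all 24 below wild type. The chaperonin Hspd1 had 172, 69.5 and 143 FPKM, and the import motor chaperone Hspa9 116, 57.8 and 101 FPKM. The list of ADP and ATP exchange, which also holds Atpif1, Vdac1 and Ucp2, had 2 of 9 lower and 1 higher (median -0.39). The lower ones were Atpif1 and the outer membrane channel Vdac1 (101, 56.0 and 93.9 FPKM). The higher one was the carrier Ucp2 (74.0, 112 and 61.8 FPKM). The ADP and ATP carriers Slc25a4 and Slc25a5 had log2 fold changes of -0.36 and -0.51, not past 1.5-fold. Coenzyme Q synthesis had a median of -0.25 with 1 of 12 lower (Coq4), a smaller share than the 16.1% of all measured genes. Regulators and genes of mitochondrial DNA upkeep had a median of -0.11 with 3 of 21 lower, Tfb1m, Peo1 and Gabpb1, again a smaller share than 16.1%. Tfb1m, a methyltransferase of mitochondrial ribosomal RNA, had 8.20, 3.06 and 6.26 FPKM, and Gabpb1, the beta subunit of GABP, 31.4, 18.9 and 40.2 FPKM. Oxidant defence genes had a median of -0.05, with 2 of 10 higher and 1 lower. The higher ones were Gsr, glutathione reductase, at 22.9, 135 and 19.3 FPKM, and Prdx5, a peroxiredoxin, at 67.1, 247 and 50.1 FPKM. The lower one was Gpx1, a glutathione peroxidase, at 472, 308 and 373 FPKM, a log2 fold change of -0.62.

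In gl/glTR against wild type these lists had medians of -0.15 (assembly factors), -0.14 (citric acid cycle), -0.25 (import), -0.25 (ADP and ATP exchange), -0.01 (coenzyme Q synthesis), -0.01 (regulators) and -0.24 (oxidant defence). Of all these lists together 1 gene, the copper chaperone Cox17 (88.7, 77.7 and 58.0 FPKM), was at least 1.5-fold lower and none was higher, where 4.26% and 5.23% of all measured genes were. Ribosomal protein genes, abundant and short as well, had medians of -0.43 and -0.33 in gl/gl and in gl/glTR against wild type for 78 cytosolic ones, and -0.37 and -0.20 for 76 mitochondrial ones. Glycolysis genes had medians of -0.18 and -0.26. In gl/gl against wild type 4 of these 18 were higher and 6 lower by 1.5-fold, where 16.3% and 16.1% of all measured genes were. Among them Hk3, a hexokinase, had 0.628, 24.7 and 0.507 FPKM, and Pfkm, a phosphofructokinase, 14.6, 5.58 and 12.9 FPKM.

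**Figure D5:**
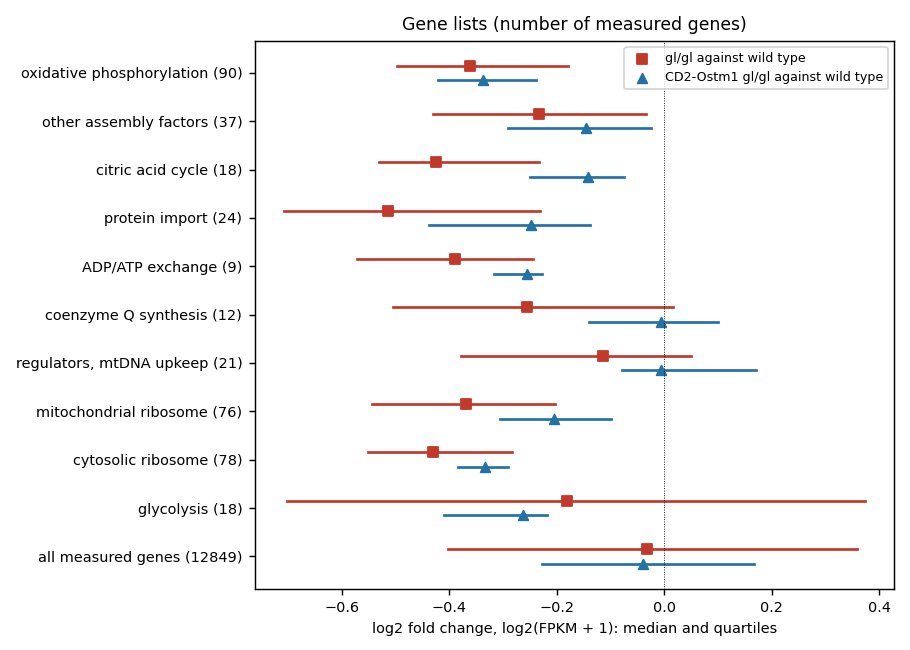
Median (symbol) and middle 50% (line) of the difference of log2(FPKM + 1) for the members, other mitochondrial lists, ribosomal protein genes, glycolysis and all measured genes, in gl/gl (red squares) and gl/glTR (blue triangles) against the same wild type library; the number of measured genes is in parentheses. The 90 members lie at -0.36 and -0.34, and the 18 citric acid cycle genes at -0.42 and -0.14.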

How the data were processed

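RNA of 3 libraries, each 1 pool of mice, was analysed. The submitters' processing notes name Cuffdiff (2.2.1), TopHat2 (2.0.10) and the build mm10; annotation, strand setting and library scaling: not given in the sources used here. No unit stands in the header of the deposited table. The authors' deposited values were read as FPKM, the unit that Cuffdiff writes. Column names identified the libraries. Of 23352 lines, 1 was empty and 3 held a cell that was no number, leaving 23348. Positions were counted from 1 by adding 1 to the file's start. For 12 members the file gives the span of a merged locus that other rows share.

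Fold changes are differences of log2(FPKM + 1), which understate the change of low genes. Measured means that 1 library or more reached 1 FPKM, and calls were made at 1.5-fold or beyond. Medians and counts over the members are set beside those over all measured genes. Assembly factors, complexes and subgroups were assigned from gene names. Named genes were the highest and lowest fold change in each complex and comparison, members past 1.5-fold, the highest levels, the isoform sets, all Sdh genes, Cyc1 and Cycs, X-linked members and up to 3 genes of each other list with the greatest change in gl/gl; Atp5c1, Atp5d, Atp5e, Atp5l, Atp5o, Atp5f1, Atp5h, Uqcrc1, Uqcrc2, Uqcrfs1, Cox5a, Cox5b and genes named in the comparisons to show spread were picked with their values in view. The members, lists and thresholds were chosen with earlier results of these data known.

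No read counts were used. Judged by the steps between low values among single-transcript genes (GENCODE M21), and assuming fragments of 200 bases, 1 fragment on 1 kb was worth about 0.0208, 0.033 and 0.0348 FPKM in wild type, gl/gl and gl/glTR. A gene's length was the median over its annotated transcripts. The median member then had about 3249, 1598 and 1525 fragments. That is a counting error of about 0.04 to 0.05 on the log2 scale, with no biological spread in it. Many of these genes have processed pseudogenes elsewhere in the genome, and reads shared with them, or with overlapping genes, make single values uncertain. The code was checked on simulated data. Python 3.11.15, pandas 2.3.3, numpy 2.4.6 and matplotlib 3.10.9 were used.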

Additional observations from a re-analysis of the deposited data

How the results depend on the processing

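No paired analysis was possible because each genotype has 1 library and the result comes from no test; no replicate could be left out. Over the alternatives the median log2 fold change of the members lay between -0.37 and -0.33 in gl/gl against wild type, between -0.36 and -0.26 in gl/glTR against wild type, and between -0.02 and 0.13 in gl/glTR against gl/gl, where its sign was not stable. No median of the members or of a complex moved by 0.1 or more. With an equal upper quartile the median of all measured genes in gl/glTR against wild type went from -0.04 to 0.03 and that of the members to -0.26. Counts past the threshold were small and followed the settings. In gl/gl against wild type the 1 higher member was lost (0) with a pseudocount of 5, a filter of 5 FPKM, a 2-fold threshold, a mean of 50 FPKM or more, and without the tissue-restricted isoforms; the 10 lower members became 3 at 2-fold and 6 at a mean of 50 FPKM or more. In gl/glTR against wild type the 2 lower became 4 with a pseudocount of 0.1 and 1 with a pseudocount of 5, a filter of 5 FPKM, 2-fold, a mean of 50 FPKM or more, and without the isoforms. In gl/glTR against gl/gl the 5 higher became 3 with a filter of 5 FPKM or structural subunits only, 2 with a pseudocount of 5, at 2-fold or without the isoforms, and 0 at a mean of 50 FPKM or more; the 2 lower became 1 under these settings and with an equal upper quartile, and 0 at a mean of 50 FPKM or more. A filter, a subset of members or a 2-fold threshold leaves fewer members to count. A larger pseudocount shrinks log2 differences, most for low genes, and a smaller pseudocount widens them. With a pseudocount of 5, Cox8b in gl/gl against wild type went from 0.67 to 0.29 and Cox7a1 from -1.04 to -0.41. For the upper quartile the cause was not tested. No member past 1.5-fold reversed. The settings with a mean of 50 FPKM and without the isoforms were chosen after seeing the data. Depth limits the isoform genes, which rest on few fragments in gl/gl.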
